A study of Mus musculus with 4 samples.

Results

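The nuclear genes of oxidative phosphorylation encode most subunits of respiratory complexes I to V. The 33 genes described here were given by name and matched by Entrez gene number, and all 33 were found among the 26611 gene numbers of the deposited table: 10 of complex I, 4 of complex II, 5 of complex III, 8 of complex IV and 6 of complex V. RNA was sequenced from spleen natural killer (NK) cells of the C57BL/6 strain background, sorted as TCRbeta-negative and positive for NK1.1, NKp46, CD11b and KLRG1, from 2 wild-type (WT) mice and 2 Tcf7 knock-out (KO) mice, each library from its own mouse. Tcf7 encodes Tcf-1, a DNA-binding factor of the Wnt pathway, and the series asks what it does in NK cells. The labels do not give the allele, age or sex of the mice.

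Complexes I, III and IV pass electrons from NADH to oxygen and pump protons out of the mitochondrial matrix, complex II feeds electrons in from succinate, and complex V (ATP synthase) uses the proton gradient to make ATP. Subunits of complexes I, III, IV and V come from both the nuclear and the mitochondrial genome, while complex II is wholly nuclear. Resting NK cells rely on this pathway for energy, and nuclear subunit genes are known for being expressed together under factors such as NRF1 and the ETS factor GABP.

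Total counts were 31860505 and 40175537 for WT and 28254693 and 37384979 for KO. The label check, Tcf7, stood at 89.5 and 79.1 CPM (counts scaled to library size) in WT and 11.2 and 25.0 CPM in KO, a log2 fold change of -2.22 (edgeR unadjusted p = 0.00607, adjusted p = 1.00). Reads were counted per gene, so the exons behind the reads left in KO are not known. NK markers were high in every library (Ncr1 at 1509.9 to 1732 CPM). Defining markers of other lymphocytes were low, with Cd3e at 0.239 to 0.610 CPM, Cd79a at 2.33 to 4.71 CPM and the summed level of 4 B cell markers at 7.16 to 21.1 CPM. The summed level of 7 T cell markers was 15.1 and 14.1 CPM in the WT libraries and 104 and 42.1 CPM in the KO libraries, of which Trac made up 94.0 and 36.1 CPM in KO. The summed level of 8 myeloid markers was 134 and 15.2 CPM in the WT libraries and 555 and 75.6 CPM in the KO libraries, and that of 6 tested of 7 listed erythroid markers was 36.0 and 28.0 against 196 and 122 CPM. Among these markers only Elane was at 0 anywhere, in WT library 2. Of the 7 T cell markers, 3 had a log2 fold change above 0 and 4 below (median -0.004). All 8 myeloid and all 6 tested erythroid markers were above 0, against 48.2% of all tested genes. The T cell and erythroid sums were higher in both KO libraries than in both WT libraries and the myeloid sums overlapped. All of these sums were higher in library 1 of each genotype, and their part in the values that follow was not tested. In such bulk samples fewer cells of a type and less RNA per cell cannot be told apart.

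Promoter sequences of the members were searched for short motifs, none of which was in more than 50% of those matched. RefSeq promoters (GRCm38.p6, the build of mm10; 250 bases before to 50 after the annotated start) were matched for 22 of the 33 members. The ETS core CCGGAAG, on either strand, was in the promoters of 6 of the 22 (27.3%) and of 9.93% of all 27025 genes with a RefSeq promoter. The NRF1 core GCATGCGC was in 3 (13.6%, against 3.05%), the YY1 core AAGATGGC in 2 (9.09%, against 3.19%), the GC box GGGCGG in 11 (50%, against 38.2%) and the TATA box TATAAA in 0 (against 15.7%). The Tcf/Lef core, searched as CTTTGAT or CTTTGTT, was in 1 of the 22, that of the complex I gene Ndufb8 (4.55%, against 10.6%). None of these motifs contains another. A match describes letters and is not a measured binding site. The 3 promoters with the NRF1 core are shown because NRF1 is a known regulator of respiratory chain genes. Capitals mark the NRF1 and ETS cores.
Sdhb, chr4:140961021-140961320, plus strand: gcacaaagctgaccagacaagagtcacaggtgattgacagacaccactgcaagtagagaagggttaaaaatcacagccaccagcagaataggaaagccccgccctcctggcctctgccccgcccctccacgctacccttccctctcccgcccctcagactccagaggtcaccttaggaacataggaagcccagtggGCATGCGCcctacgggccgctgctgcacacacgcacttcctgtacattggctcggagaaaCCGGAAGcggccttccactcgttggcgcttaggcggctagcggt
Cox6a1, chr5:115348909-115349208, minus strand: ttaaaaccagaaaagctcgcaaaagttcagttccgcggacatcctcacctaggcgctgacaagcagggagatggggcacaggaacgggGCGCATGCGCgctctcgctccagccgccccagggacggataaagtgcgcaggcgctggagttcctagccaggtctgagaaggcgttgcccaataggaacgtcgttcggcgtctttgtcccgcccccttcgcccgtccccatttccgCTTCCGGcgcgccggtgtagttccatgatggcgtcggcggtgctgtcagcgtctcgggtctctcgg
Uqcrc1, chr9:108936398-108936697, plus strand: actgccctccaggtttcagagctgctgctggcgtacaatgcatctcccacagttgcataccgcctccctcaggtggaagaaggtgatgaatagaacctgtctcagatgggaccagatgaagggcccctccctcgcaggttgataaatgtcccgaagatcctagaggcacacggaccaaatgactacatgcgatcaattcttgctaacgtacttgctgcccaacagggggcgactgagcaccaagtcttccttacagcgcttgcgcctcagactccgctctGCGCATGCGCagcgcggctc
In Cox6a1 and Uqcrc1 the core was found on both strands, overlapping, so that 10 bases are capitals, and the ETS core of Cox6a1 lay on the minus strand of the promoter as printed.

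Transcripts of most of the 33 genes were abundant in these NK cells. The 33 genes together took 6635 and 5319 CPM in the WT libraries and 7346 and 5528 CPM in the KO libraries. Per kilobase of gene length, the scale on which genes are compared, the median member stood at 138 CPM per kb over the 4 libraries, where the median of all 12723 tested genes was 8.60. Sdhd, at 6.26 CPM per kb, lay below the median of all tested genes. By complex the medians were 120 (I), 115 (II), 124 (III), 179 (IV) and 190 CPM per kb (V). The lowest count of any member in any library was 172, and all 33 passed the filter on low counts.

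**Figure D1:**
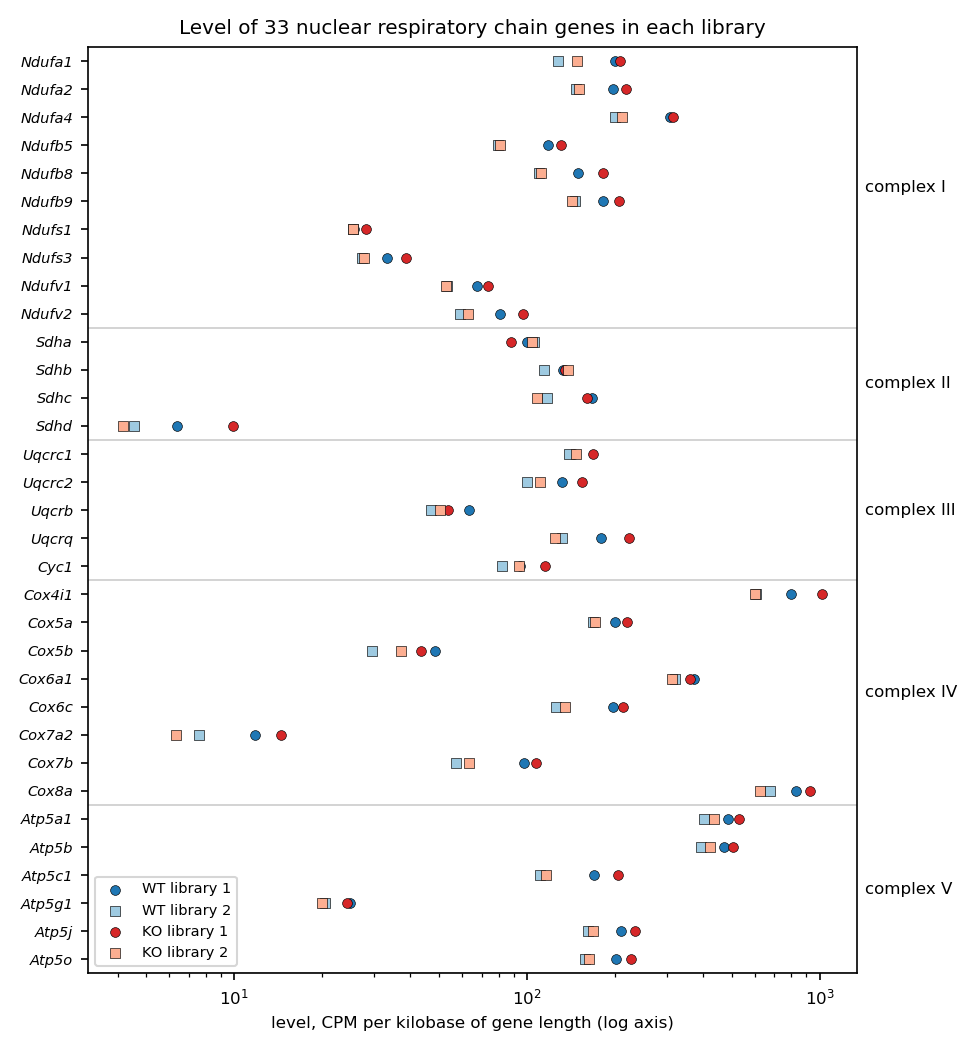
Level of each of the 33 genes in the 4 libraries, in CPM per kilobase of gene length on a log axis, grouped by complex; circles are libraries numbered 1 and squares libraries numbered 2, blue for WT and red for KO. Cox8a and Cox4i1 lie highest and Sdhd lowest, and for most genes the squares lie left of the circles in both genotypes.

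Within a complex the levels of subunit genes differed widely. Complex IV, cytochrome c oxidase, held both the highest members, Cox8a (763 CPM per kb) and the regulatory subunit gene Cox4i1 (756 CPM per kb), and the second lowest of all, Cox7a2 (10.04 CPM per kb). Cox6a1 (chr5:115345652-115348958) stood at 342 and Cox5b at 39.7 CPM per kb. In complex V the catalytic core genes Atp5a1 (462 CPM per kb) and Atp5b (448 CPM per kb), which encode the alpha and beta subunits, lay highest. Atp5g1, one of the genes for the membrane rotor subunit c, lay lowest at 22.4 CPM per kb. Its paralogs, which encode the same mature peptide, stood at 387 (Atp5g3) and 5.53 CPM per kb (Atp5g2).

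In complex I, NADH dehydrogenase, the range was 26.2 (Ndufs1, the large iron-sulfur subunit gene) to 259 CPM per kb (Ndufa4, first named as a complex I subunit and since found with complex IV). Complex III, cytochrome bc1, ran from 53.6 (Uqcrb) to 164 CPM per kb (Uqcrq). In complex II the flavoprotein gene Sdha (99.4), the iron-sulfur subunit gene Sdhb (130) and the membrane anchor gene Sdhc (138 CPM per kb) were close together, and the other anchor gene, Sdhd, stood at 6.26 CPM per kb. Some of the low levels are uncertain, since reads of processed pseudogenes can be shared or lost in counting. Annotated pseudogenes with at least 150 aligned bases at 97% identity or more were found for Uqcrb (3), Atp5g1 (1), Atp5o (1) and Ndufs3 (1), and for 0 of the other 29 members, Sdhd and Cox7a2 included.

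Between KO and WT no member was called, and the estimated differences were small but uncertain. edgeR's quasi-likelihood test called 0 of the 33 members and 0% of the 12723 genes tested at an adjusted p under 0.05. At an unadjusted p under 0.05 there were 0 members, against 2.84% of all tested genes, and DESeq2's Wald test called 0 members against 0.558% of tested genes. The log2 fold change, KO minus WT, ranged from -0.10 (Sdha) to 0.37 (Sdhd), with a median of 0.11, where the median over all tested genes was -0.01. It was above 0 in 28 of 33 members, against 48.2% of all tested genes. Short genes as a whole shared part of this shift: the median over all 1425 tested genes under 1000 bases was 0.10, as it was for the 19 members of that length. It was 0.04 over all genes of 1000 to under 2000 bases and 0.15 for 11 members, and -0.02 over all genes of 2000 to under 4000 bases and 0.07 for 3 members. Intervals were wide, from -1.26 at the lowest bound to 1.71 at the highest, and a p above the threshold is no evidence that levels were equal. An exact permutation of 4 labels gives no p under 0.333.

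**Figure D2:**
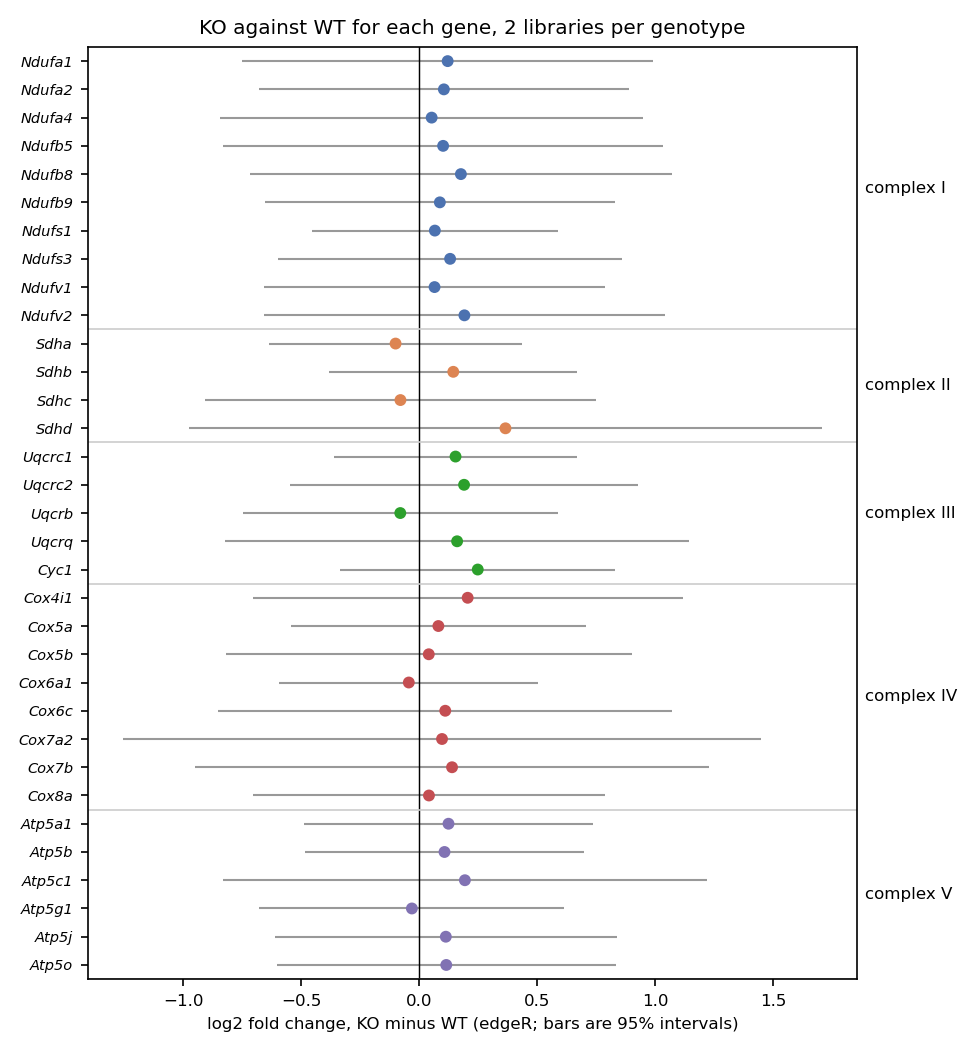
log2 fold change, KO minus WT, of each gene from edgeR (points, coloured by complex) with its 95% interval (bars), 2 libraries per genotype. All 33 intervals include 0, and the points lie between -0.10 and 0.37.

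The direction of this median rested on single libraries. It was -0.04 without WT library 2 and -0.16 without KO library 1, and 0.31 without WT library 1 and 0.36 without KO library 2. Both KO libraries lay above both WT libraries in 2 of 33 members, against 9.64% of all tested genes, and below them in 0, against 11.6%.

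Positions beside gene names are RefSeq spans on GRCm38.p6 (mm10). All 10 complex I members had a log2 fold change above 0, with a median of 0.10. Ndufv2 (chr17:66078795-66101559), a subunit gene of the electron input module, had 119 and 87.0 CPM in the WT libraries and 143 and 92.4 CPM in the KO libraries (log2 fold change 0.19, SE 0.32, 95% interval -0.66 to 1.04). Ndufb8 (chr19:44548571-44555442), a membrane arm subunit gene, had 96.0 and 70.6 CPM in the WT libraries and 117 and 71.6 CPM in the KO libraries (0.18, SE 0.34). In both genes library 1 was the higher of each genotype and the genotypes overlapped. Ndufa4 (chr6:11900372-11907450) had 151 and 98.6 CPM in the WT libraries and 155 and 104 CPM in the KO libraries, the smallest log2 fold change of the complex (0.05, SE 0.34). Ndufs1 (chr1:63143592-63176822) had 75.2 and 74.7 CPM in the WT libraries and 82.4 and 74.6 CPM in the KO libraries (0.07, SE 0.20), so that 3 of its 4 libraries were nearly level and KO library 1 was highest.

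Complex II members parted in direction. Sdha (chr13:74322255-74350240) had 286 and 302 CPM in the WT libraries and 252 and 297 CPM in the KO libraries (log2 fold change -0.10, SE 0.20, 95% interval -0.64 to 0.44). Sdhb (chr4:140961271-140979198) had 143 and 123 CPM in the WT libraries and 145 and 149 CPM in the KO libraries (0.14, SE 0.20, interval -0.38 to 0.67), without overlap but with KO library 1 close above WT library 1. Sdhc (chr1:171129157-171150640) had 196 and 138 CPM in the WT libraries and 189 and 128 CPM in the KO libraries (-0.08, SE 0.31). Here both libraries numbered 1 lay above both libraries numbered 2. Sdhd (chr9:50596340-50603849) had 8.21 and 5.83 CPM in the WT libraries and 12.8 and 5.35 CPM in the KO libraries (0.37, SE 0.50, interval -0.98 to 1.71), from 267, 229, 374 and 193 counts. KO library 1 was highest and KO library 2 lowest, so the largest log2 fold change among the members came from the gene with the lowest level per length.

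Of the 5 complex III members, 4 were above 0. Cyc1 (chr15:76343513-76346260), which encodes the cytochrome c1 subunit, had 113 and 98.1 CPM in the WT libraries and 138 and 113 CPM in the KO libraries. Its log2 fold change was 0.25 (SE 0.22, 95% interval -0.33 to 0.83), and its edgeR unadjusted p of 0.314 was the smallest of the 33. Uqcrc1 (chr9:108936648-108949641), a core subunit gene, had 239 and 231 CPM in the WT libraries and 279 and 244 CPM in the KO libraries (0.15, SE 0.19) without overlap. Uqcrb (chr13:66900576-66905350), which encodes a small binding subunit, had 31.8 and 23.6 CPM in the WT libraries and 27.0 and 25.4 CPM in the KO libraries (-0.08, SE 0.25), with both KO libraries between the WT ones. Uqcrq (chr11:53427922-53430831), a small subunit gene of 499 bases, had 89.2 and 65.8 CPM in the WT libraries and 111 and 62.0 CPM in the KO libraries (0.16, SE 0.37), the widest range of the complex.

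Of the 8 complex IV members, 7 were above 0. Cox4i1 (chr8:120668225-120674209) had 542 and 412 CPM in the WT libraries and 693 and 407 CPM in the KO libraries (log2 fold change 0.21, SE 0.34, 95% interval -0.71 to 1.12). Cox8a (chr19:7215158-7217616), which encodes a small membrane subunit, had 451 and 369 CPM in the WT libraries and 503 and 341 CPM in the KO libraries (0.04, SE 0.28). For both genes the KO libraries lay on either side of the WT libraries. Cox6a1 had 199 and 171 CPM in the WT libraries and 192 and 167 CPM in the KO libraries (-0.04, SE 0.21), the lowest log2 fold change of the complex. Cox7a2 (chr9:79755241-79771422), another small subunit gene, had 8.92 and 5.70 CPM in the WT libraries and 10.9 and 4.77 CPM in the KO libraries (0.10, SE 0.51), and again the KO libraries were both the highest and the lowest.

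Of the 6 complex V members, 5 were above 0. Atp5a1 had 1177 and 975 CPM in the WT libraries and 1291 and 1055 CPM in the KO libraries (log2 fold change 0.12, SE 0.23, 95% interval -0.49 to 0.74). Atp5c1 (chr2:10056030-10080510), which encodes the gamma subunit that forms the rotating shaft, had 304 and 200 CPM in the WT libraries and 368 and 209 CPM in the KO libraries (0.19, SE 0.38). Atp5g1 (chr11:96072793-96075694) had 21.6 and 17.8 CPM in the WT libraries and 21.1 and 17.4 CPM in the KO libraries (-0.03, SE 0.24). In all 3 genes both libraries numbered 1 lay above both libraries numbered 2.

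Compared within libraries of the same number, KO lay above WT for both numbers in 19 of 33 members, against 26.2% of all tested genes. The median log2 ratio of KO to WT was 0.15 between the libraries numbered 1 (27 of 33 above 0) and 0.04 between those numbered 2 (21 of 33). The labels do not say that a number marks a shared day, litter or batch, and with 1 library of each genotype and number these ratios have no replicate.

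The members differed more between library numbers than between genotypes. In WT, library 2 lay below library 1 in 32 of 33 members (49.6% of all tested genes), with a median log2 ratio of -0.40. In KO it did so in 31 of 33 members (50.7% of all tested genes), with a median of -0.48. The same 31 members were lower in both genotypes, against 40.4% of all tested genes. The exceptions were both of complex II: Sdha was higher in library 2 of both genotypes (log2 ratio 0.08 in WT and 0.24 in KO), and Sdhb in KO (-0.22 and 0.04). Ratios were lowest for Cox7b in WT (-0.78) and for Sdhd (-1.24) and Cox7a2 (-1.17) in KO. By complex the medians in WT and KO were -0.43 and -0.54 (I), -0.35 and -0.26 (II), -0.40 and -0.29 (III), -0.52 and -0.61 (IV), and -0.32 and -0.38 (V). Averaged over the genotypes, the difference between numbers was larger than that between genotypes in 31 of 33 members, against 73.8% of all tested genes.

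**Figure D3:**
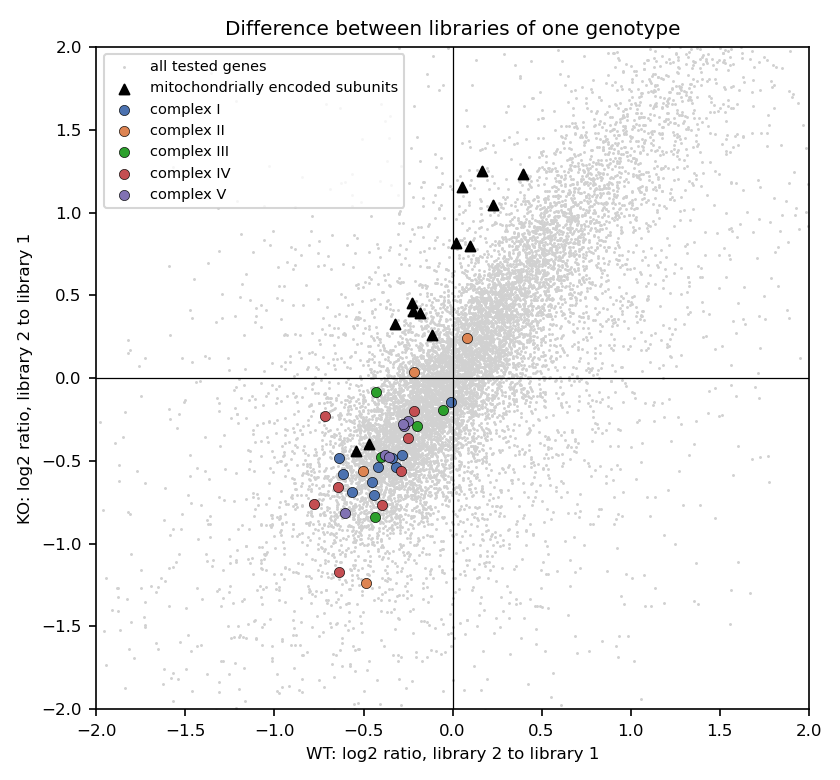
log2 ratio of library 2 to library 1 in WT (horizontal) and in KO (vertical) for the 33 genes by complex, the 13 mitochondrially encoded subunits (triangles) and all 12723 tested genes (grey; 642 lie outside the axes, which end at 2). Of the 33 genes, 31 lie below 0 on both axes.

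Gene length moved with this difference. The members are short genes, with a median deposited length of 868 bases against 2688 over all tested genes, and the 8 complex IV members are the shortest (median 624 bases). Over all 1425 tested genes under 1000 bases the median log2 ratio of library 2 to library 1 was -0.36 in WT and -0.55 in KO, and for the 19 members of that length it was -0.42 and -0.53. Over the 2945 tested genes of 1000 to under 2000 bases it was -0.19 and -0.28, against -0.40 and -0.48 for 11 members. Over the 4948 genes of 2000 to under 4000 bases it was 0.04 and 0.03, and the 3 members in that class were at -0.01 and -0.14. The 3405 genes of 4000 bases or more, among which there is no member, lay at 0.41 and 0.57. After a smooth trend on gene length was taken off each library, the members' median ratio was -0.08 in WT and -0.05 in KO, with 24 and 19 of 33 below 0. With the same trend as an offset in edgeR, the members' median log2 fold change, KO minus WT, was 0.04, with 24 of 33 above 0, and that of all tested genes was 0.02.

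**Figure D4:**
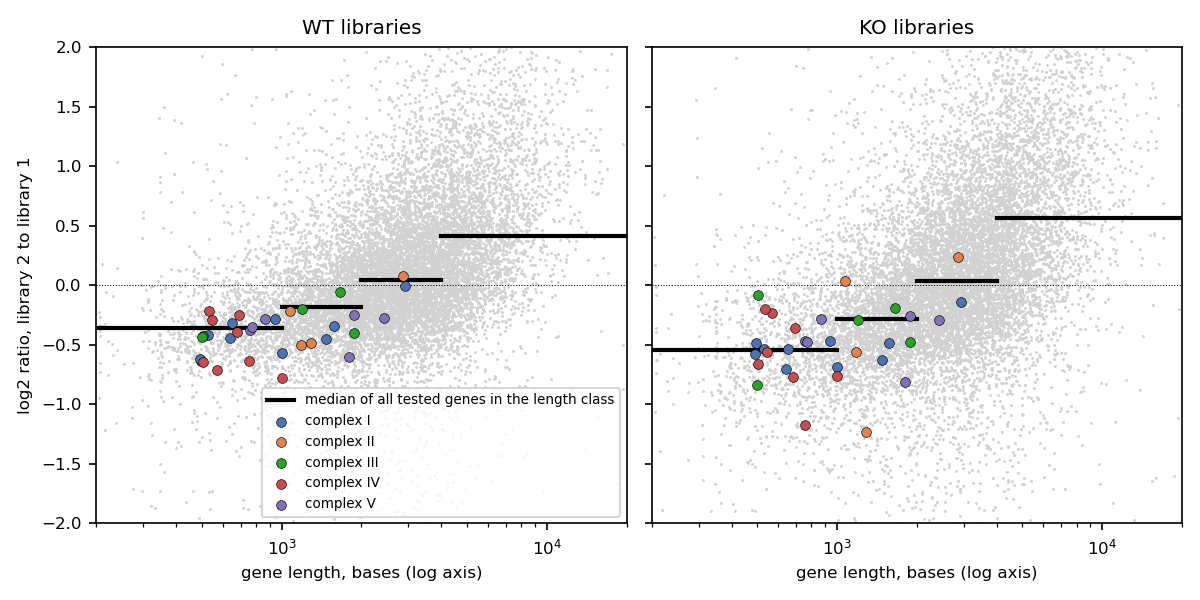
The log2 ratio of library 2 to library 1 against gene length on a log axis, for WT (left) and KO (right). Grey points are all tested genes within the axes, black bars the median of each length class, and coloured points the 33 genes by complex. The black bars rise from -0.36 to 0.41 in WT and from -0.55 to 0.57 in KO, and most of the 33 genes lie near the bars of short genes.

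Other nuclear subunit genes of complexes I, III, IV and V, with cytochrome c, also showed 0 calls. Of 47 listed, 45 were tested, and 37 of the 45 log2 fold changes were above 0, with a median of 0.08. Atp5l, of the ATP synthase membrane part, was highest (8.74 and 6.11 CPM in the WT libraries, 13.7 and 5.55 in the KO libraries; log2 fold change 0.37, SE 0.52). It had 4 near-identical pseudogenes, so its level is uncertain. Ndufs6 of complex I was lowest (27.4 and 18.4 CPM in the WT libraries, 25.1 and 16.7 in the KO libraries; -0.13, SE 0.34). Atp5e, the epsilon subunit gene, had the highest level per length (556 CPM per kb; 249 and 182 CPM in the WT libraries, 313 and 178 in the KO libraries). Uqcr11 of complex III was counted 0 and 0 times in WT and 1 and 1 times in KO. It had 1 near-identical pseudogene, so its level is uncertain too. The RefSeq gene number of Ndufb1 was not among those of the deposited table, so Ndufb1 was not analysed here. In both genotypes library 2 was the lower in 43 of the 45.

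Of 9 listed isoforms of cytochrome c oxidase and related subunits known from muscle, lung or testis, 7 did not pass the filter on low counts. Cox7b2, Cox8b, Cox8c and Cyct had 0 counts in all 4 libraries, which allows up to 0.0747 to 0.106 CPM by library total, before TMM scaling (3 counts per library; counting error only). The heart and muscle isoform gene Cox6a2 had 1.78 and 1.12 CPM in the WT libraries and 6.68 and 2.64 CPM in the KO libraries, from 58, 44, 196 and 95 counts, and the groups did not overlap. Its log2 fold change was 1.68 (SE 0.61, 95% interval 0.05 to 3.30; edgeR unadjusted p = 0.0452, adjusted p = 1.00). The summed erythroid markers were also higher in both KO libraries than in both WT libraries. So was the T cell sum (104 and 42.1 CPM in KO), of which Trac made up 94.0 and 36.1 CPM. The myeloid sums overlapped (75.6 CPM in KO library 2, 134 CPM in WT library 1), but all 8 myeloid markers had a log2 fold change above 0 (median 2.62). For 4 of the 8, both KO libraries lay above both WT libraries, against 9.64% of all tested genes. Any part of such cells in the level of Cox6a2 was not tested. Without each library in turn the log2 fold change of Cox6a2 ranged from 0.86, without KO library 1, to 2.24. Cox6b2 had 0.461 and 0.458 CPM in the WT libraries and 1.23 and 0.333 CPM in the KO libraries.

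Among 49 assembly factors, which build the complexes without staying in them, 47 were tested and 0 called, with 31 above 0 and a median of 0.05. Lyrm7 (chr11:54826866-54860921), which helps insert the iron-sulfur protein of complex III, had the lowest log2 fold change. It had 3.48 and 2.60 CPM in the WT libraries and 0.989 and 0.666 CPM in the KO libraries, from 113, 102, 29 and 24 counts, so that both KO libraries lay well below both WT libraries. The log2 fold change was -1.87 (SE 0.46, 95% interval -3.09 to -0.66; edgeR unadjusted p = 0.0116, adjusted p = 1.00), and the log2 ratio was -1.72 and -1.82 in the libraries numbered 1 and 2. Lyrm7 lies on the same chromosome as the knocked-out gene Tcf7 (chr11:52246527-52283383). So do other listed genes, among them the members Uqcrq, which lies between Tcf7 and Lyrm7, and Atp5g1. Their log2 fold changes were 0.16 and -0.03, and their genotypes overlapped. Whether a difference linked to the knock-out allele plays a part in the level of Lyrm7 was not tested. Cmc2 was the highest (12.8 and 10.4 CPM in the WT libraries, 18 and 14.1 in the KO libraries; 0.47, SE 0.26), and the copper chaperone gene Cox17 had the highest level per length (77.8 and 59.2 against 75.3 and 61.9 CPM).

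Of 14 enzymes of the tricarboxylic acid cycle, which supplies the chain with electrons, 0 were called and 13 were above 0, with a median of 0.08. Dld, the shared dihydrolipoamide dehydrogenase subunit of the 2-oxoacid dehydrogenases, had 91.5 and 79.1 CPM in the WT libraries and 145 and 128 CPM in the KO libraries without overlap. Its log2 fold change was 0.68 (SE 0.21, 95% interval 0.13 to 1.23; edgeR unadjusted p = 0.0255, adjusted p = 1.00), with ratios of 0.66 and 0.70 within numbers 1 and 2. Ogdh, which works with it, had 418 and 488 CPM in the WT libraries and 323 and 466 CPM in the KO libraries (-0.20, SE 0.26). Mdh2 had the highest level per length (213 and 207 against 216 and 224 CPM; 0.07, SE 0.18).

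Regulators of mitochondrial biogenesis showed 0 calls among 13 tested, 9 above 0 and a median of 0.02. Myc, the growth factor-induced transcription factor gene, was highest (21.4 and 32.5 CPM in the WT libraries, 22.7 and 48.6 in the KO libraries; log2 fold change 0.41, SE 0.46) and Gabpb1, a subunit of GABP, lowest (88.8 and 68.7 against 75.5 and 70.9 CPM; -0.11, SE 0.23). Yy1 had the highest level per length (128 and 150 against 129 and 151 CPM). In 8 of these 13 genes, whose median length was 3656 bases, library 2 was higher than library 1 in WT.

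The 13 mitochondrially encoded subunits, given for comparison, summed to 37396 and 34230 CPM in the WT libraries and 25403 and 36603 CPM in the KO libraries, and 0 were called (median log2 fold change -0.21, 2 above 0). KO library 1, which had the highest sum over the 33 nuclear genes, had the lowest over the mitochondrial ones. mt-Co1 had 15389 and 13158 CPM in the WT libraries and 10153 and 13920.2 CPM in the KO libraries (-0.25, SE 0.27), mt-Nd1 was lowest (-0.32, SE 0.25) and mt-Co3 highest (0.15, SE 0.30). Of the 13, 11 were higher in library 2 of KO (median 0.46), while in WT the median was -0.12.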

How the data were processed

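RNA of sorted mouse spleen NK cells was sequenced in 4 libraries (2 WT, 2 Tcf7 KO), from 200 ng of total RNA with a TruSeq preparation and paired-end reads, per the labels' protocols. The deposited values are whole-number counts per gene with a gene length, and featureCounts and mm10 are the counter and build that the authors name, per the submitters' processing notes. The aligner, annotation release and strand setting are not given in the sources used here. Single-sample files held the same counts as the series table.

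Members and lists were chosen with earlier results of these data known. Gene names and positions came from RefSeq GRCm38.p6 (25275 of 26611 numbers matched). filterByExpr of edgeR 4.0.16 (minimum count 10) kept 12723 genes, which were tested with the quasi-likelihood F-test (TMM factors, robust, genotype only; R 4.3.3) and Benjamini-Hochberg adjustment over all of them. Levels are TMM-scaled CPM, where 1 CPM before scaling is 28.3 to 40.2 counts (TMM factors 0.965 to 1.04). For ratios, 0.1 CPM was added. SE and 95% intervals were derived from edgeR's F statistic. All tests are two-sided.

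Named were all complex II members, and in each other complex the highest and lowest level per length and fold change and the widest range. In each other list the highest and lowest fold change and the highest level per length were named. Uqcrc1, Atp5b, Cox5b, Cox7b, Atp5g2 and Atp5g3 were named after their values were seen. Alternatives were DESeq2 1.42.0, limma 3.58.1 voom, other scalings and filters, a gene length offset (loess, span 0.5), the replicate number as a block and leaving out each library. The chi-square per degree of freedom between libraries was 36.7 to 282, far above that of copies. The scripts were tested on simulated data.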

Additional observations from a re-analysis of the deposited data

How the results depend on the processing

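No member was called in any of the 12 alternatives, and their median log2 fold change stayed above 0 in all but 2 of them, those without WT library 2 or KO library 1 (range without each library -0.16 to 0.36). Over all genes, edgeR called 21 higher and 14 lower with no filter on low counts, DESeq2's Wald test 48 and 23, and the fits without each library 0 to 45 higher and 0 to 10 lower. The labels' replicate numbers do not state a pairing. Deviations from the genotype means correlated at 0.73 between libraries of the same number, and with the replicate number as a block edgeR called 136 genes higher and 85 lower, 0 of the members, Lyrm7 (-1.88, adjusted p = 0.0462) and Dld (0.68, adjusted p = 0.0195). With the offset for gene length the members' median ratio of library 2 to library 1 was -0.083 in WT and -0.054 in KO, and the cause was not tested. With it the log2 fold changes of Ndufa4 (-0.030), Cox8a (-0.059), Cox7a2 (-0.013) and Cox17 (-0.066) changed sign, as did Cox7a2 with voom (-0.0011). Tcf7 was called with no filter (adjusted p = 0.0204), by DESeq2 (0.00216) and without KO library 2 (0.00409). An alternative with 1 CPM added for ratios was chosen after seeing the data and moved neither median by over 0.01. Fits without a library leave 1 library in its genotype, which is assumed to vary like the pair of the other genotype, and are unbalanced for the number.

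Without each library in turn, log2 fold changes that changed sign ranged from -0.19 to 0.016 (Sdha), -0.39 to 0.21 (Sdhc), -0.39 to 0.89 (Sdhd), -0.26 to 0.39 (Ndufa4), -0.0064 to 0.17 (Ndufs1), -0.16 to 0.51 (Ndufv2), -0.22 to 0.52 (Ndufb8), -0.32 to 0.55 (Uqcrq), -0.26 to 0.15 (Uqcrb), -0.27 to 0.33 (Cox8a), -0.61 to 0.61 (Cox7a2), -0.23 to 0.57 (Cox4i1), -0.15 to 0.085 (Cox6a1), -0.028 to 0.30 (Atp5a1), -0.18 to 0.14 (Atp5g1), -0.27 to 0.58 (Atp5c1), -0.42 to 0.91 (Atp5l), -0.45 to 0.18 (Ndufs6), -0.27 to 0.57 (Atp5e), -0.46 to 1.44 (Cox6b2), -0.16 to 0.21 (Cox17), -0.45 to 0.040 (Ogdh), -0.21 to 0.85 (Myc), -0.26 to 0.087 (Gabpb1), -0.10 to 0.15 (Yy1) and -0.089 to 0.44 (mt-Co3). Without a change of sign, mt-Co1 ranged from -0.46 to -0.035. Of the members recomputed, Sdhb (0.055 to 0.25), Uqcrc1 (0.056 to 0.28) and Cyc1 (0.095 to 0.42) kept their direction, and for the others the cause was not tested.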
